A study of Arabidopsis thaliana with 4 samples.

Results

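Transcripts that were lowered at least 2-fold in Arabidopsis thaliana plants expressing CBF2 from the 35S promoter are described here. They were read from 42 probe sets of the 22746 on the array that stand for genes. A probe set was included if its signal was 60 or more on both wild type arrays and if the higher 35S::CBF2 signal was at most the lower wild type signal divided by 2. This minimum of 60 was met by 8826 probe sets. The members therefore made up 0.476% of them. A further 4 probe sets met the same thresholds and were left out by the rule, namely those of PDF1.2, PDF1.2b, AT3G16530 and AT3G16670. With these the thresholds were met by 0.521% of the 8826. The measured values themselves chose the members, so their fall is a description and carries no test.

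The plants were whole seedlings 10 days old, grown on plates at 24 °C in continuous light after 4 days of cold stratification of the seed. The control group was wild type of the accession Ws-2, with 2 arrays. The other group carried CBF2 under the 35S promoter, also with 2 arrays, and the labels do not restate the accession for it. The 35S promoter is active in most plant tissues and at all times of day, so it does not need a cold stimulus. The protocol text of both 35S::CBF2 samples names the line E2, while 1 of the sample titles carries the code E24, so it is not settled whether 1 or 2 lines were used. Per the labels, 4 plates of about 100 plants each were harvested separately for each genotype, so each sample is a pool of plants. Nothing in the labels says which plates gave which array. The errors given here therefore describe how far these arrays differ, whether for technical or other reasons. Each error also draws on the spread of other probe sets of similar signal, not on that gene's own values alone. In whole plants, fewer cells of a type and less RNA per cell cannot be told apart.

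CBF2 belongs to the CBF/DREB1 proteins, AP2/ERF transcription factors that plants make within hours of a drop in temperature. These proteins bind the CRT/DRE element in promoters and are known chiefly as activators of cold-protective genes. Plants that make them constantly tolerate freezing better and grow more slowly, and some transcripts fall in them as well as rise. The lowered transcripts come from genes that were expressed in warm-grown wild type seedlings.

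The arrays were close to each other in scale, with median signals between 39.6 and 42.4. In the annotation used here no probe set is named for CBF2, but 8730 probe sets have no gene listed and 1 of them may read it. The CBF2 transcript itself was therefore not read, and the transgene was checked through its known targets. Of the 5 measured cold genes known to be driven by CBF proteins, 4 rose, and COR15A, whose chloroplast product shields membranes during freezing, read 13.2 and 6.18 in wild type against 8987 and 8018 in 35S::CBF2. On 35S::CBF2 replicate 2, spike-in controls added before hybridisation had 1.97 times their wild type mean, against 0.637 times on replicate 1.

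In wild type the lowered transcripts spanned a wide range of abundance. The geometric mean of the 2 wild type signals ran from 66.8 to 1002 with a median of 240.3, beside a median of 154 for all 8826 probe sets that met the minimum. In 35S::CBF2 the geometric mean ran from 12.4 to 355 with a median of 72.4. The fall was of moderate size in most members. Between geometric means it ran from 2.09-fold to 5.41-fold with a median of 3.01-fold, and it was at least 4-fold in 10 members. The median log2 difference was -1.59, beside -0.05 over all probe sets that met the minimum. Across the 42 members the wild type level and the log2 difference had a Pearson correlation of -0.05, a value across probe sets that share the same 4 arrays.

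**Figure D1:**
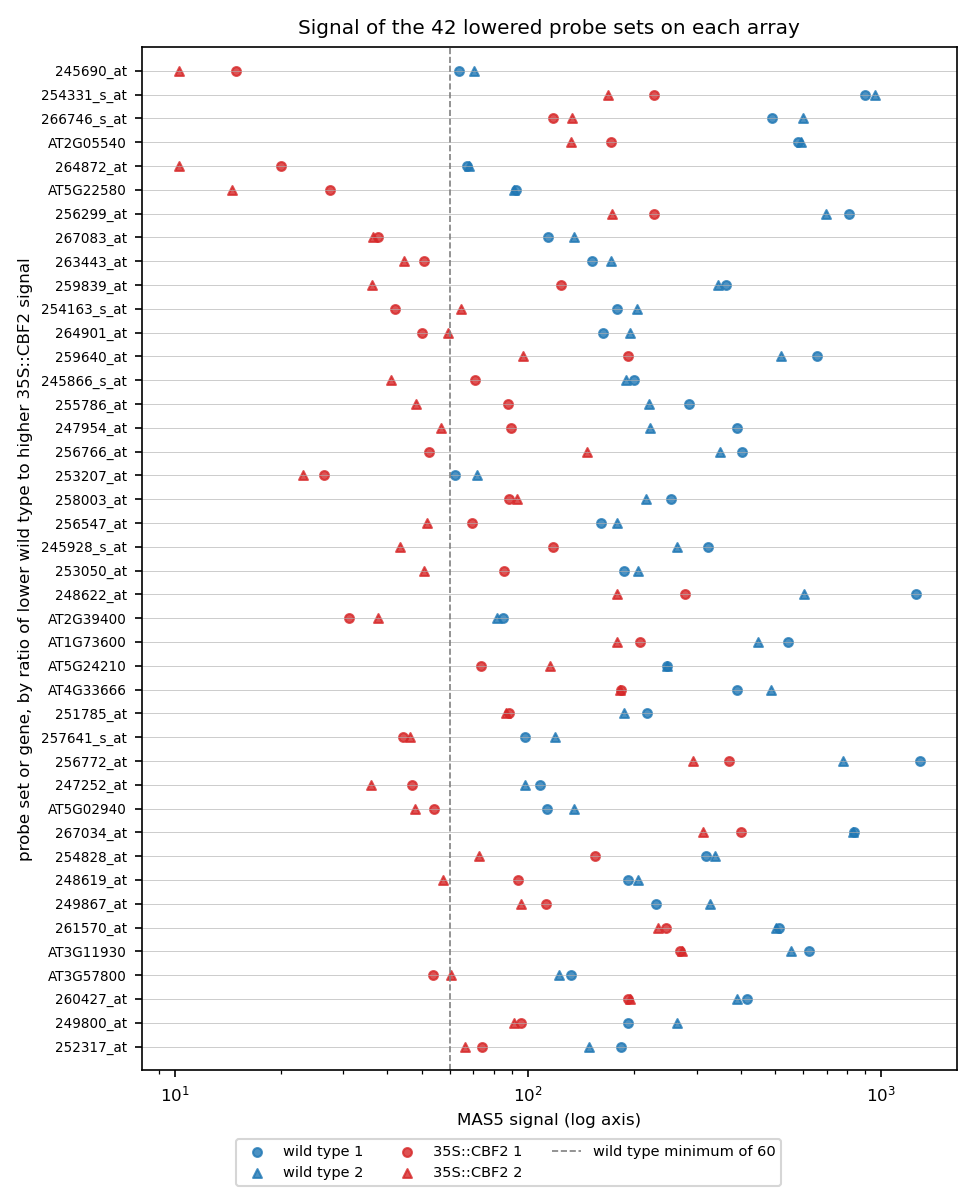
MAS5 signal (log axis) of each of the 42 lowered probe sets on the 2 wild type arrays (blue) and the 2 35S::CBF2 arrays (red), ordered by the ratio of the lower wild type to the higher 35S::CBF2 signal. Every red point lies left of every blue point of its line, as the rule requires, and this ratio runs from 4.28 at the top to 2.00 at the bottom.

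**Figure D2:**
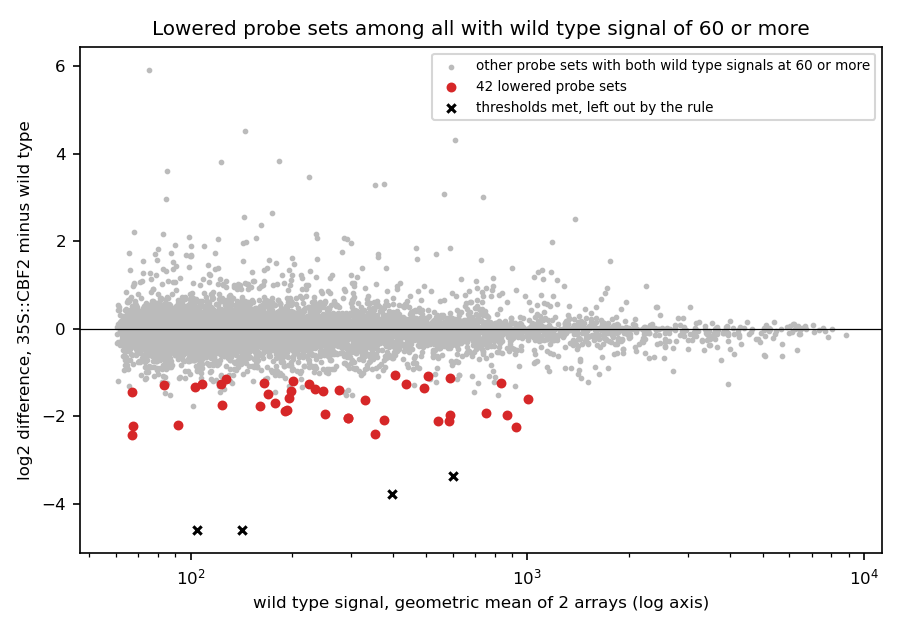
Log2 difference (35S::CBF2 minus wild type) against the geometric mean wild type signal (log axis) for all 8826 probe sets with both wild type signals at 60 or more. The 42 lowered probe sets (red) lie between -2.44 and -1.07 at wild type signals from 66.8 to 1002, and the 4 left out by the rule (crosses) lie lower.

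Only 9 of the 42 members carry exactly 1 gene in the annotation used here, 2 carry several genes, and 31 are not listed. This is 21.4% with 1 gene, beside 50.5% of the probe sets that met the minimum. The probe sets of these 9 genes are not shared with other genes. No gene among them has a second probe set.

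Among the genes with a role in lipids, AT1G73600 encodes a member of the phosphoethanolamine N-methyltransferase family, enzymes that methylate phosphoethanolamine on the way to phosphocholine and so to phosphatidylcholine. It read 545 and 446 in wild type against 208 and 178 in 35S::CBF2. The higher 35S::CBF2 array lay below the lower wild type array by a factor of 2.15, and the log2 difference was -1.36 ± 0.18 (SE, n = 2 per group). Other genes of the same route, which the rule did not choose, were read beside it. PMEAMT, another methyltransferase of this family, had 1039 and 940 in wild type against 796 and 983 in 35S::CBF2, so the groups overlapped (log2 difference -0.16 ± 0.16, limma adjusted p = 0.785). CCT2 encodes an enzyme that turns phosphocholine into CDP-choline, and its signals rose from 23.8 and 32.1 to 157 and 160 (5.75-fold, log2 difference 2.52 ± 0.24, limma adjusted p = 1.77e-04). The related CCT1 had 68.1 and 71.5 in wild type against 94.9 and 84.4 in 35S::CBF2 and did not pass (log2 difference 0.36 ± 0.22, limma adjusted p = 0.566). The choline kinase family genes AT1G74320 and AT4G09760 and the aminoalcoholphosphotransferase gene AAPT2, which acts last in the route, did not pass, with log2 differences of -0.09, -0.49 and -0.14. Of the 6 measured genes of the route outside the rule, 1 rose and 0 fell, and 0 were lower at an unadjusted p under 0.05.

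AT5G24210 encodes a lipase of class 3, a group of enzymes that cleave acyl lipids. Both wild type arrays gave 247, and the 35S::CBF2 arrays gave 73.8 and 116 (log2 difference -1.42 ± 0.23). The 35S::CBF2 arrays of this gene differed from each other by a factor of 1.57, while its wild type arrays were nearly equal. AT2G39400 encodes a hydrolase of the alpha/beta fold, in a group related to monoacylglycerol lipases. It read 85.2 and 81.6 in wild type against 31.1 and 37.6 in 35S::CBF2 (log2 difference -1.29 ± 0.25). It stands beside relatives of the same family on the chromosome. AT2G39410, the next gene, had 18.9 and 17.0 in wild type against 6.92 and 15.3 in 35S::CBF2 and was too dim to be tested. AT2G39420, which is 3 genes away, had 52.8 and 38.4 in wild type against 26.3 and 29.5 in 35S::CBF2 and did not pass (log2 difference -0.69 ± 0.31, limma adjusted p = 0.385). In both of these neighbours the 35S::CBF2 arrays lay below the wild type arrays, in AT2G39410 by little (15.3 against 17.0). The share of all probe sets with such a separation was not counted, so nothing is read from it. In the family members AT3G55180 and AT3G55190, elsewhere in the genome and too dim to be tested, the groups overlapped. AT3G55180 had 11.3 and 12.9 in wild type against 8.01 and 12.8 in 35S::CBF2, and AT3G55190 had 1.33 and 14.4 against 14.1 and 10.2.

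Among genes for stress proteins, AT5G22580 encodes a protein with the stress-responsive A/B barrel domain, a small fold whose role in plants is little known. It read 92.5 and 91.4 in wild type against 27.5 and 14.5 in 35S::CBF2, a fall of 4.60-fold between geometric means (log2 difference -2.20 ± 0.34). The difference was -1.74 without 35S::CBF2 replicate 2 and -1.69 with an offset of 11.7 before the log. AT2G31670 and AT2G32500, which encode proteins with the same domain, had log2 differences of -0.07 ± 0.16 and -0.06 ± 0.21 and overlapped between the groups. AT3G11930 encodes a member of the universal stress protein family, small nucleotide-binding proteins. It read 626 and 557 in wild type against 270.0 and 273 in 35S::CBF2 (log2 difference -1.12 ± 0.16). The family did not move together. AT3G53990, another member, rose from 455 and 482 to 1711 and 1673 (3.61-fold, log2 difference 1.85 ± 0.14, limma adjusted p = 3.37e-05). AT2G47710 and AT3G01520 did not pass, with log2 differences of 0.39 ± 0.16 and 0.33 ± 0.18 (limma adjusted p = 0.317 and 0.509).

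AT5G02940 encodes a POLLUX-like ion channel of the plastid envelope. It read 113 and 135 in wild type against 54.2 and 48.0 in 35S::CBF2 (log2 difference -1.27 ± 0.22). Its close relative AT5G43745 had 47.5 and 57.4 in wild type against 57.3 and 47.8 in 35S::CBF2, with a log2 difference of 0.00 ± 0.26. AT3G57800 encodes a transcription factor of the bHLH family and is the 1 regulator among the named members. It read 132 and 122 in wild type against 53.9 and 60.6 in 35S::CBF2 (log2 difference -1.16 ± 0.21). AT2G42300, a related bHLH gene, had 75.5 and 70.8 in wild type against 71.3 and 63.9 in 35S::CBF2 (log2 difference -0.12 ± 0.22, limma adjusted p = 0.919).

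AT2G05540 encodes a glycine-rich protein, a class that includes wall and secreted proteins, and is the brightest of the deeper falls with a named gene. Its wild type arrays gave 583 and 594 and its 35S::CBF2 arrays 172 and 132, a fall of 3.91-fold (log2 difference -1.97 ± 0.18). AT2G05530, the next gene and also of the glycine-rich class, had signals between 11.9 and 14.8 on all 4 arrays. AT4G33666, whose product has no role assigned here, had 391 and 488 in wild type against 183 and 182 in 35S::CBF2 (log2 difference -1.26 ± 0.18).

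**Figure D3:**
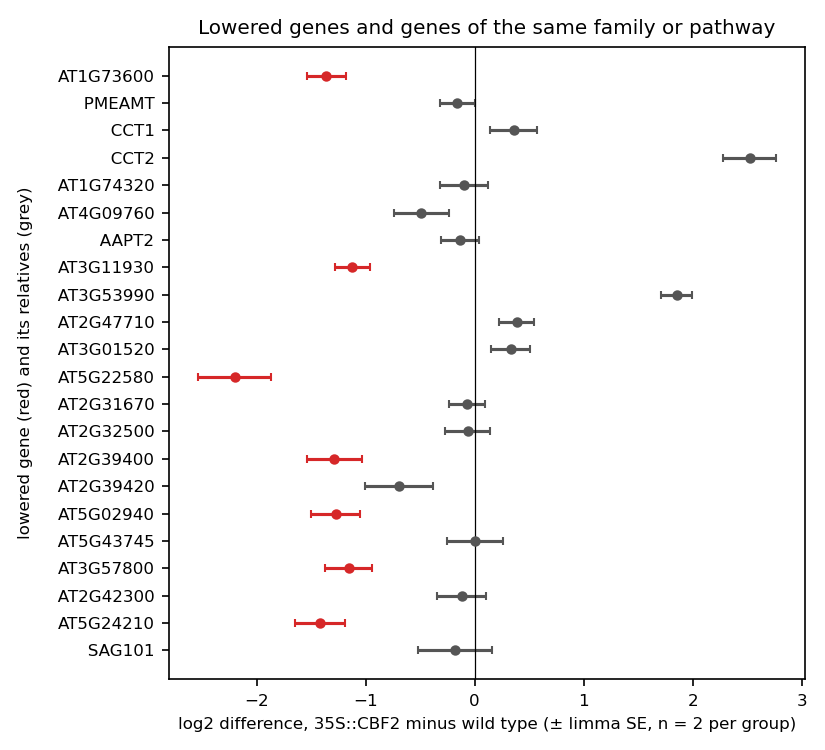
Log2 difference (35S::CBF2 minus wild type, bars are limma's SE, n = 2 per group) of 7 lowered genes (red) and of the 15 tested genes of the same family or pathway (grey). The red points lie between -2.20 and -1.12, while CCT2 and AT3G53990 lie at 2.52 and 1.85 and the other relatives between -0.69 and 0.39.

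The relatives were picked by family or pathway, with the members known, and 15 of 21 were bright enough to be tested. Of these 15, 2 rose and 0 fell, beside 2.11% of all tested probe sets that rose and 1.25% that fell. At an unadjusted p under 0.05, 0 of them fell. All 42 members also passed this limma test as lower, beside 1.77% of the probe sets that met the minimum, and nothing is read from it because the same values chose them.

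Genes standing next to the named members on the chromosome were also read, up to 3 genes on each side. Of 25 such neighbours with a probe set of their own, 12 were tested and 0 passed in either direction, with 1 at an unadjusted p under 0.05. Their median log2 difference was -0.09, beside -0.04 over all tested probe sets. No measured neighbour was itself a member, but only the 9 members with exactly 1 gene could have been counted. Whether the lowered transcripts come from neighbouring genes was therefore not tested.

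The 2 members that carry several genes are shared probe sets. The probe set 254163_s_at had 178 and 204 in wild type against 41.9 and 64.5 in 35S::CBF2. AT4G24350, which is 1 of its listed genes, has a probe set of its own outside the rule, which had 72.0 and 75.1 in wild type against 29.8 and 46.4 in 35S::CBF2. On this second probe set the groups did not overlap, but the log2 difference of -0.98 ± 0.28 did not pass (limma adjusted p = 0.114). In both probe sets 35S::CBF2 replicate 1 was the lowest array. The probe set 245866_s_at had 199 and 189 in wild type against 70.6 and 40.9 in 35S::CBF2. Probe sets whose identifier marks them as matching several transcripts made up 14.3% of the members, beside 3.35% of those that met the minimum.

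Members with no gene listed made up 73.8% of all members, beside 47.6% of the probe sets that met the minimum. They were 6 of the 8 members with the largest ratios. The largest ratio of the lower wild type to the higher 35S::CBF2 signal was 4.28, in 245690_at, with 63.9 and 70.2 in wild type against 14.9 and 10.3 in 35S::CBF2. The probe set 254331_s_at had 896 and 960 in wild type against 227 and 168 in 35S::CBF2, a fall of 4.74-fold from a high level. The probe set 266746_s_at fell from 491 and 599 to 117 and 133. These were the largest ratios, and in each the spread within a group was small beside the distance between the groups. A choice by this ratio favours such values, so nothing is read from it. The probe set 264872_at had 67.2 and 67.9 in wild type against 20.01 and 10.3 in 35S::CBF2, and 256299_at had 810.1 and 699 in wild type against 227 and 173 in 35S::CBF2. The probe set 267083_at had 114 and 135 in wild type against 37.7 and 36.4 in 35S::CBF2. With AT2G05540 and AT5G22580 these are the 8 members in which every 35S::CBF2 array lay at least 3-fold below every wild type array. Next to them, 263443_at had 151 and 171 in wild type against 50.8 and 44.6 in 35S::CBF2, and 264901_at had 163 and 194 in wild type against 50.2 and 59.4 in 35S::CBF2.

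Other members without a listed gene were among the brightest. The probe set 256772_at had 1287 and 780 in wild type against 370.4 and 292 in 35S::CBF2. The probe set 248622_at had 1256 and 605 in wild type against 278 and 178 in 35S::CBF2, and its wild type arrays differed by a factor of 2.07, the most of any member. The probe set 267034_at, in contrast, had 838 and 834 in wild type against 402 and 313 in 35S::CBF2. The probe set 259640_at had 659 and 522 in wild type against 192 and 96.6 in 35S::CBF2, and 261570_at had 512 and 504 in wild type against 246 and 234 in 35S::CBF2. In all, 10 members had a wild type geometric mean of 500 or more and 5 had one under 100.

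The wild type arrays agreed closely for most members and the 35S::CBF2 arrays less so. The median factor between arrays was 1.15 in wild type and 1.29 in 35S::CBF2. Over all probe sets that met the minimum these medians were 1.14 and 1.16. A factor of at least 1.5 between the 35S::CBF2 arrays was found in 15 of 42 members (35.7%), beside 8.02% of the probe sets that met the minimum. In wild type it was found in 7.14% of members, beside 5.85% of the probe sets that met the minimum. These were 3 members, 248622_at, 256772_at and 247954_at, in each of which replicate 1 was the brighter. The rule bounds the 35S::CBF2 signals from above only, so these shares are descriptions.

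In 31 of the 42 members (73.8%) 35S::CBF2 replicate 2 was lower than replicate 1, beside 54.8% of the probe sets that met the minimum. The median log2 difference from the wild type mean was -1.41 on replicate 1 and -1.65 on replicate 2. Over all probe sets that met the minimum it was -0.03 and -0.07. Replicate 2 is also the array with the bright spike-in controls, whose part in these falls was not tested. The largest gap was in 259839_at, with 364 and 345 in wild type, 124 on replicate 1 and 36.1 on replicate 2. The probe set 245928_s_at had 324 and 265 in wild type, 118 on replicate 1 and 43.3 on replicate 2, and 254828_at had 320 and 338 in wild type, 154 and 72.8 in 35S::CBF2. A gap of the opposite sense was found in 256766_at, with 403 and 349 in wild type, 52.3 on replicate 1 and 147 on replicate 2. AT5G24210 and 254163_s_at also fell more on replicate 1. Across the 42 members the differences on the 2 arrays had a Pearson correlation of 0.34, and both share the same wild type mean. The size of the fall thus differed between the 2 35S::CBF2 arrays for these members, while the rule fixed its direction. Since these arrays may come from 1 or 2 lines, array and line cannot be told apart here.

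**Figure D4:**
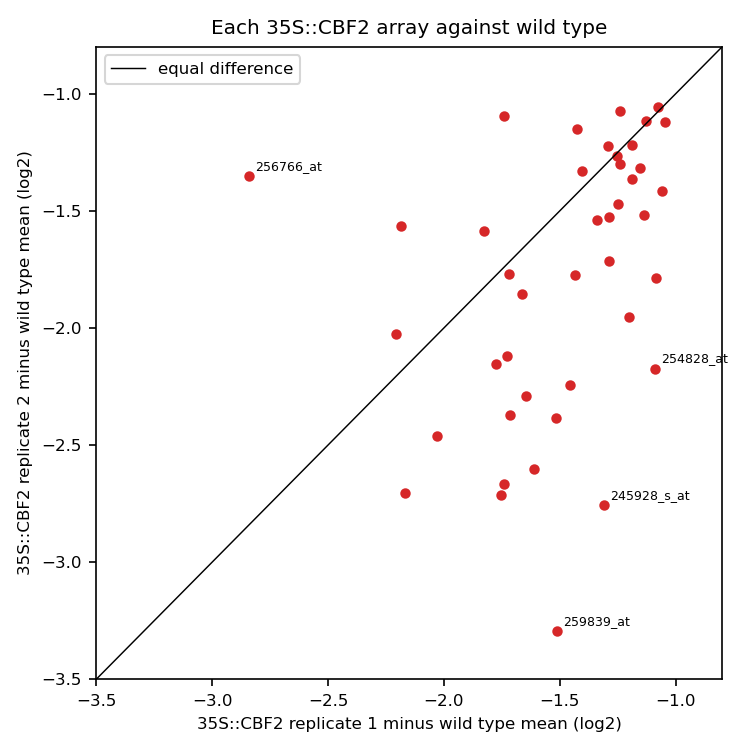
Log2 difference from the wild type mean of each of the 42 lowered probe sets on 35S::CBF2 replicate 1 (horizontal) and replicate 2 (vertical), with the line of equal difference. The 31 points below the line fell more on replicate 2, and 259839_at lies farthest below it, while 256766_at lies farthest above it.

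The thresholds set which transcripts are included. Just inside the 2-fold limit were 252317_at, 249800_at and 260427_at, with ratios of the lower wild type to the higher 35S::CBF2 signal of 2.00, 2.01 and 2.02. Just outside it were AT1G66940, 247549_at and 253372_at, with ratios of 1.99, 1.98 and 1.98. AT1G66940 had 299.8 and 281 in wild type against 141 and 71.9 in 35S::CBF2, values much like those of members. Just inside the minimum were 253207_at, 245690_at and 264872_at, with a lower wild type signal of 62.1, 63.9 and 67.2. Just outside it were 264016_at, AT1G23000 and 251248_at, with a lower wild type signal of 59.96, 59.8 and 59.2. The probe set 251248_at had 89.3 and 59.2 in wild type against 3.12 and 2.98 in 35S::CBF2, a wider gap than in any member. AT1G23000 had 60.03 and 59.8 in wild type against 22.9 and 24.5 in 35S::CBF2.

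Since all 4 arrays chose the members, the same thresholds were also applied to 1 wild type and 1 35S::CBF2 array and the other 2 arrays were then read. On wild type replicate 1 and 35S::CBF2 replicate 1 they chose 197 probe sets. On the other pair of arrays 160 of these (81.2%) were lower in 35S::CBF2, beside 56.7% of the probe sets not chosen. At least 2-fold lower were 75 (38.1%), beside 2.59% of all probe sets with this wild type signal at 60 or more. The median log2 difference was -1.21 on the pair that chose and -0.73 on the pair that was read. On wild type replicate 1 and 35S::CBF2 replicate 2 they chose 308, of which 62 (20.1%) were at least 2-fold lower on the other pair, beside 1.43%. On wild type replicate 2 and 35S::CBF2 replicate 1 they chose 154, of which 63 (40.9%) were at least 2-fold lower, beside 2.79%. On wild type replicate 2 and 35S::CBF2 replicate 2 they chose 276, of which 71 (25.7%) were at least 2-fold lower, beside 1.66%. In the 4 choices the share that was lower on the arrays not used ran from 81.2% to 85.1%, beside 51.1% to 56.7% of the probe sets not chosen. The median fall was smaller there than on the arrays that chose them. Probe sets chosen with 35S::CBF2 replicate 2 were more numerous, and a smaller share of them was 2-fold lower on replicate 1. The 42 members are in all 4 choices by construction. The rule also makes them at least 2-fold lower on every pair, so they are 42 of the 75, 62, 63 and 71 above. These shares therefore hold a part that was fixed in advance, and no support for the members is read from them. The sizes given for them are therefore those of probe sets chosen for a large fall on these same arrays.

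**Figure D5:**
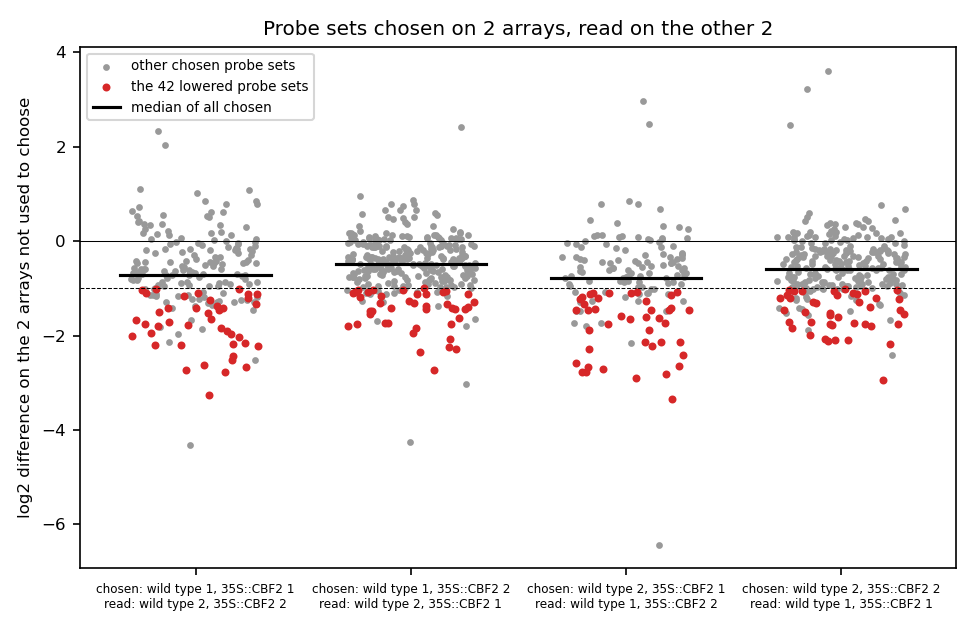
Log2 difference (35S::CBF2 minus wild type) on the 2 arrays not used for the choice, for probe sets chosen as at least 2-fold lower on 1 wild type and 1 35S::CBF2 array, in the 4 possible ways (197, 308, 154 and 276 probe sets). The black bars, the medians, lie between -0.77 and -0.49, and the 42 lowered probe sets (red) lie below the dashed line at -1 by construction.

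Genes of 13 pathway lists were also read. The lists hold none of the 9 members with exactly 1 gene, and the other 33 members could not be looked up. Of their 374 genes, 60 had a probe set of their own and 50 were tested, of which 3 fell and 7 rose. For sugar transport and dark-induced genes 7 of 31 were tested, all of the SWEET family of sugar transporters, and 2 fell and 2 rose. SWEET11, a sucrose exporter of the phloem, fell from 1048 and 1284 to 658 and 532 (log2 difference -0.97 ± 0.17, limma adjusted p = 0.0100) but missed the 2-fold limit. Its call was lost without wild type replicate 2 (0.0661), without 35S::CBF2 replicate 2 (0.0560) and without the intensity trend (0.102), and over all alternatives its adjusted p was at least 0.00143. SWEET16, of the vacuole, fell from 54.3 and 55.5 to 19.8 and 14.2 (log2 difference -1.72 ± 0.34, limma adjusted p = 0.0172), below the minimum of 60. Its call was lost without wild type replicate 1 (0.0762) or 2 (0.0963), without 35S::CBF2 replicate 2 (0.0702) and without the filter (0.0938), and its adjusted p was at least 0.0108. SWEET1 and SWEET13, which also carry sugars, rose (log2 differences 1.35 ± 0.20 and 1.87 ± 0.25, limma adjusted p = 0.00323 and 0.00158). The median of the 7 was -0.30, beside -0.04 over all tested probe sets.

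For cell wall growth 12 of 46 genes were tested, of which 0 fell and 1 rose, with a median of -0.16. At an unadjusted p under 0.05, 4 were lower and 1 higher. The share of all tested probe sets at this unadjusted level was not counted, so nothing is read from such counts here or elsewhere. XTH32, of the enzymes that cut and rejoin xyloglucan, rose from 144 and 113 to 236 and 315 (limma adjusted p = 0.0160). Its adjusted p ran from 0.00196 to 0.112 over the alternatives, and the call was lost without wild type replicate 2 (0.0822), without 35S::CBF2 replicate 2 (0.112) and without the intensity trend (0.0905). XTH16, of the same family, had 202 and 179 in wild type against 119 and 64.2 in 35S::CBF2 and did not pass (limma adjusted p = 0.0548). It passed without 35S::CBF2 replicate 1 (0.00244), with a letter of the sample titles as block (0.0150) and with the offset (0.0471), and its adjusted p reached 0.272 over the alternatives. The expansin genes EXPA8 and EXPA15, whose products loosen walls, did not pass, with log2 differences of -1.08 ± 0.34 and -0.71 ± 0.23 (limma adjusted p = 0.147 and 0.160). Both passed without 35S::CBF2 replicate 1 (0.00317 and 0.0270), EXPA8 also without wild type replicate 2 (0.0317) and EXPA15 with that letter as block (0.0302), and over all alternatives their adjusted p reached 0.635 and 0.665. For jasmonate and ethylene defence 1 of 30 genes was tested, PDF1.2b, which fell and which the rule left out.

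In the remaining lists 0 genes fell. Of glucosinolate synthesis 3 of 36 genes were tested, with 1 lower at an unadjusted p under 0.05. Of auxin, gibberellin and brassinosteroid genes 5 of 46 were tested, also with 1 lower at that level. Of flavonoid and lignin genes 4 of 24 were tested, with 1 lower and 1 higher at that level. Of photosynthesis genes 8 of 37 were tested, with a median of -0.04 and 1 higher at that level. Of nutrient uptake 1 of 40 was tested, of salicylic acid defence 1 of 20, of the circadian clock 1 of 22 and of common reference genes 2 of 9, with 0 past an unadjusted p of 0.05. Of aquaporin genes 0 of 19 had a probe set of their own in the annotation used here, so most of each list was not measured.

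Markers of organs and cell types were sparse as well, with 9 of 61 measured, 7 tested and 0 past the threshold, also at an unadjusted p under 0.05. The tested ones had log2 differences between -0.33 and 0.04. The summed signal of 4 root markers was 1968 and 1569 in wild type against 1502 and 2136 in 35S::CBF2. PYK10 gave most of it, with 1872 and 1473 in wild type against 1429 and 2046 in 35S::CBF2. The summed signal of 4 guard cell and epidermis markers was 755 and 997 in wild type against 721 and 684 in 35S::CBF2. Most of this sum came from FDH, with 655 and 863 in wild type against 600 and 597 in 35S::CBF2 (limma adjusted p = 0.475). SPCH lay between 27.7 and 28.6 on all 4 arrays, and in FMA and MUTE the groups overlapped. RCA, the rubisco activase gene that marks green tissue, had 7469 and 7885 in wild type against 8084 and 6774 in 35S::CBF2. Markers of flowers, seeds and vascular tissue had 0 measured genes. A part of tissue make-up in the lowered transcripts was not tested.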

How the data were processed

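RNA of 4 samples was measured on Affymetrix ATH1 arrays, 1 array each. The authors deposited signal intensity (linear scale), computed by MAS5 according to the submitters' processing notes, which name no version. The mean after trimming 2% at each end was 100.0 on each array, so no further scaling was done. Control probe sets (64 of 22810) were left out. Names came from a 2016 platform annotation matched to the TAIR10.1 RefSeq gene table: 13513 probe sets have 1 gene (13436 matched), 503 several and 8730 none listed, and probe sets without exactly 1 gene are given by their identifier. Coordinates were used only to order the genes along the chromosomes for the reading of neighbours.

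Log2 signals of 13647 probe sets above the 40th percentile (geometric mean above 24.8) went into limma 3.58.1, run in R 4.3.3 (eBayes with intensity trend, two-sided, Benjamini-Hochberg over all of them, threshold 0.05). SE values are limma's, moderated with the spread of probe sets of similar signal. The size of a fold is uncertain where signals are at or near background, and 2 arrays per group limit the precision. The procedure was tested on simulated data with independent noise on each array, so that test does not cover effects shared within an array. Replicates 1 and 2 of 35S::CBF2 are named in listed order, because their labels carry an identical number. The members and lists were chosen with earlier results of these data known. Named by rule were the members with 1 gene (ordered by ratio and level), the probe sets at the thresholds and up to 4 genes of a list. Members with no single gene were picked after their values were seen, for their ratio, level or gap between arrays, and relatives, neighbours and the choice on 2 arrays were added then too. The planned promoter motif search was not run, since no sequence was used here.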

Additional observations from a re-analysis of the deposited data

Results flagged for a closer look

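Spike-in controls for hybridisation, made from bacterial and phage sequences, are read by 18 probe sets that were kept out of the comparisons. Relative to wild type their mean was 1.97 times as high on 35S::CBF2 replicate 2, against 0.637 times on replicate 1, while single wild type arrays stood at 1.01 and 0.985. The array stands out because this signal exceeded that of the wild type arrays. Of the 42 lowered probe sets, 31 (73.8%) were lower on it than on 35S::CBF2 replicate 1. This share was 54.8% over all probe sets that met the minimum. A link between the spike-in signal and the falls was not tested.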

How the results depend on the processing

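The number of lowered probe sets was 42 as reported and after quantile normalization, 41 after centring on medians, 33 with a wild type minimum of 120 and 36 without shared probe sets. It was 74 with a minimum of 30, 173 at 1.5-fold, 8 at 3-fold and 140 with geometric means. Of the 41 after centring, 37 were among the 42. Applied to 3 arrays the rule gave 90 and 114 without wild type replicates 1 and 2, and 144 and 70 without 35S::CBF2 replicates 1 and 2, so the count depends on which arrays must agree. The median log2 difference of the 42 ran from -1.65 to -1.41 over all alternatives. Past limma's threshold as lower were 31 of the 42 without the intensity trend and 38 without the filter. The same values chose the members, so nothing is read from these counts.

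Over all tested probe sets the lower calls (170) came to 281 when the title letter was a block, 96 on unfiltered probe sets and 48 when the trend was dropped, and to 92 (without 35S::CBF2 replicate 2) to 271 (without 35S::CBF2 replicate 1) with an array left out. They were 103 without wild type replicate 1. The higher calls (288) were 157 without the trend and 178 to 334 with an array left out. Of the listed genes, 3 fell, but 1 with the filter at the 60th percentile, which drops dim genes, 6 with the letter block, and 1 to 7 with an array left out. A group left with 1 array was taken to have the spread of the other. The cause of these shifts was not tested.

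None of the genes called as reported changed sign in the 11 alternatives. Of 47 list genes and relatives, 10 that did not pass did so, with log2 differences over the arrays left out from -0.27 to 0.25 for GSTU20 (0.024 after centring), -0.13 to 0.14 for AT5G43745, -0.54 to 0.18 for SAG101, -0.042 to 0.10 for GAPC2, -0.25 to 1.00 for GI, -0.26 to 0.13 for AT2G32500, -0.17 to 0.037 for AT2G31670, -0.66 to 0.13 for GID1C, -0.015 to 0.80 for DFR and -0.25 to 0.018 for LHCB4.1. The call was lost in some alternative for 3 genes (SWEET11, SWEET16, XTH32) and gained for 6. No paired analysis was possible because the 2 arrays of 35S::CBF2 carry an identical replicate number. A letter in the sample titles, of unstated meaning, served as a block instead, and deviations of arrays with the same letter correlated at 0.07. The motif alternatives were not run. Detection calls were not used here, and member signals in 35S::CBF2 went down to 10.3, where the size of a fall is least certain.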
